A study of Mus musculus with 6 samples.

Results

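The HoxC and HoxD clusters were taken as every CpG in mm10 chr15:102915000-103040000 (HoxC, Hoxc13 to Hoxc4) and chr2:74660000-74770000 (HoxD, Hoxd13 to Hoxd1) that was read at least 5 times in all 6 libraries. This gave 475 CpGs in HoxC and 600 in HoxD, together 1075 of the 1192344 CpGs (0.0902%) that met the same minimum across the genome. The method was reduced representation bisulfite sequencing (RRBS), in which MspI-cut fragments rich in CpGs are sequenced after bisulfite treatment, so that the share of reads still carrying a C gives the methylation level of a CpG in percent. The cells were CD8+ T cells enriched with magnetic beads from the lymph nodes of 13-week-old C57BL/6N mice. WT mice were compared with mice hemizygous for a human STAT5B transgene (genotype hSTAT5B +/T) and mice hemizygous for its N642H mutant (hSTAT5B N642H +/T), with 2 libraries per genotype.

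Both transgenes were driven by the Vav1 promoter, which acts across blood cells and not only in CD8+ T cells, and each genotype came from a chosen transgenic line. The hSTAT5B N642H mice were diseased, with expansion of CD8+ T cells, so genotype and disease cannot be told apart. A level measured in bulk is an average over cells, and a change in all cells cannot be told apart from a change in the share of cells of another type or state.

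Hox genes encode homeodomain transcription factors that set position along the body axis, and they lie in 4 clusters (HoxA, HoxB, HoxC and HoxD) whose gene order follows their order of use. In blood, genes of HoxA and HoxB are the ones best known from stem and progenitor cells. HoxC and HoxD genes are better known from limb, genital and trunk development, and in cells that do not use them Hox clusters are often covered by Polycomb proteins, which tend to occupy CpG-rich DNA that lacks methylation.

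The 5 stretches of reference sequence printed here carry levels described further on. All are the + strand of GRCm38 (mm10) from RefSeq, 5′ to 3′, and capitals mark the CpGs measured in all 6 libraries. The HoxC stretch chr15:103000641-103000716, in an exon of Hoxc6 inside a long Hoxc5 transcript, held the bin that differed most between hSTAT5B N642H and WT among those whose libraries did not overlap.
HoxC, Hoxc6 exon: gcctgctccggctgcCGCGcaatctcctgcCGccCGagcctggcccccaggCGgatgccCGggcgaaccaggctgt
The HoxC stretch chr15:102950806-102951009 lies between genes, upstream of Hoxc11, and ranked next in that comparison.
HoxC, upstream of Hoxc11: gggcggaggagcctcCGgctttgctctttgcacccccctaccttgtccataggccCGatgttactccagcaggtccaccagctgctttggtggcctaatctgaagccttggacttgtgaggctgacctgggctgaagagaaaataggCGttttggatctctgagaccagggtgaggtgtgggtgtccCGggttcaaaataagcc
The HoxD stretch chr2:74759266-74759535 lies in the transcript of Haglr, a long non-coding RNA that runs opposite to Hoxd1, and held the most methylated bin of either cluster.
HoxD, Haglr: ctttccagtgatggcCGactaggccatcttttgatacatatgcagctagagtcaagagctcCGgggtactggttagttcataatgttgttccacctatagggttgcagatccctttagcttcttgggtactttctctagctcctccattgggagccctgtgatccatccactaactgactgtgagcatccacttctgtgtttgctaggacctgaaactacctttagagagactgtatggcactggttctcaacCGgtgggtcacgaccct
The HoxD stretch chr2:74666742-74666888 lies between genes, upstream of Hoxd13.
HoxD, upstream of Hoxd13: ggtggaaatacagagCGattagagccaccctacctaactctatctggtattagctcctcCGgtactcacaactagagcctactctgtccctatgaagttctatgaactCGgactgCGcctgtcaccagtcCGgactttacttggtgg
The HoxD stretch chr2:74681950-74682205 is the start of the CpG island at Hoxd11, the island with the most CpGs read in HoxD. It stands for the CpG-dense, little-methylated DNA that makes up much of the clusters.
HoxD, Hoxd11 island: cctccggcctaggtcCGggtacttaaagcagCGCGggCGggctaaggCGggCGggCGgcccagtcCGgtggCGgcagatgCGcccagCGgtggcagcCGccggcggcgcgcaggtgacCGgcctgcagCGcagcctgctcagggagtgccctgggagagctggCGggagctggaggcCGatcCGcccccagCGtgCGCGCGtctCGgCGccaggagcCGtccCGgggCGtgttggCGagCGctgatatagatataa

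RRBS reached 18.2% of the 2603 reference CpGs of the HoxC window and 20.3% of the 2951 of the HoxD window. The libraries held between 43291086 and 67007186 reads of CpGs, and their median reads per listed CpG ran from 5 in WT replicate 1 to 11 in hSTAT5B N642H replicate 1. The median CpG of HoxC was covered by 20 reads and that of HoxD by 21, so the level of 1 CpG in 1 library is coarse and levels are given as unweighted means over CpGs. CpG islands, stretches of over 200 bp rich in GC and CpG, held 175 of the HoxC CpGs (36.8%) and 365 of the HoxD CpGs (60.8%). As a check of the label, Cd8b1, a subunit of the CD8 co-receptor, had levels of 44.2 and 45.6% in WT, 23.9 and 29.4% in hSTAT5B and 13.9 and 14.3% in hSTAT5B N642H within 10 kb of the gene. Near Cd8a, the other subunit, WT replicate 1 stood apart at 65.7% against 29.8 to 42.6% in the other 5 libraries, so values without it are given for the main differences from WT. Averaged over 8 T cell marker genes (Cd8a, Cd8b1, Cd3e, Cd3d, Cd3g, Thy1, Cd5 and Lck), mean levels were 58.2 and 52.9% in WT, 51.2 and 50.9% in hSTAT5B and 47.3 and 46.4% in hSTAT5B N642H. The B cell markers ran from 52.9 to 63.7% and the myeloid markers from 75.8 to 77.5% across all libraries, and the part of cell composition in the results was not tested.

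HoxC and HoxD were little methylated in CD8+ T cells of every genotype. Over the HoxC CpGs the mean level was 12.98 and 11.8% in the WT libraries, 12.5 and 13.9% in hSTAT5B and 13.1 and 13.8% in hSTAT5B N642H. Over the HoxD CpGs it was 12.0 and 11.7% in WT, 11.9 and 12.6% in hSTAT5B and 12.2 and 12.7% in hSTAT5B N642H. In both clusters the hSTAT5B libraries overlapped each of the other genotypes, and hSTAT5B N642H lay above WT by a mean of 1.06 percentage points in HoxC and 0.571 in HoxD (exact two-sided permutation test, p = 0.333 in each, the smallest that 2 libraries against 2 allow). Leaving out 1 library moved the HoxC value to between 0.449 (without WT replicate 2) and 1.67 (without WT replicate 1), and reads pooled over CpGs gave 0.328. The HoxD value was 0.335 when replicate 2 of hSTAT5B N642H was left out, 0.807 when its replicate 1 was, and 0.701 without WT replicate 1. Against the other 4 libraries together, a split not planned beforehand, the exact permutation p of hSTAT5B N642H was 0.400 in HoxC and 0.267 in HoxD. Across all CpGs of the genome the mean level was between 61.9 and 62.7%. Inside CpG islands of the genome it was 6.61 to 6.98%, and the islands of HoxC (7.56 to 9.29%) and HoxD (7.10 to 8.58%) lay above that in every library. Of island CpGs, 53.1% in HoxC and 56.7% in HoxD were under 20% in all 6 libraries, against 80.5% in the genome. Between 52.6 and 57.5% of HoxC CpGs and between 58.2 and 63.3% of HoxD CpGs had a level under 10% in a library. CpGs over 80%, which made up 56.1 to 57.7% of the genome's, were 0.211 to 0.842% of HoxC and 1.33 to 2.33% of HoxD.

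The other Hox clusters, measured in the same libraries, were methylated to a higher level. HoxA (604 CpGs) ran from 26.0 to 31.4% and HoxB (657 CpGs) from 23.8 to 27.6%. Within a library, HoxC minus HoxA ran from -19.6 to -12.7 percentage points and HoxC minus HoxB from -15.8 to -10.01. HoxD minus HoxA ran from -19.7 to -13.8 points and HoxD minus HoxB from -15.9 to -11.1. All 6 libraries showed each of these 4 differences (exact two-sided sign-flip permutation test, p = 0.03125, the smallest that 6 libraries allow, and the same after Benjamini-Hochberg adjustment over 5 pairs of clusters). HoxC lay above HoxD by a mean of 0.815 points (0.0302 to 1.25, exact sign-flip permutation p = 0.03125). That order was not stable: with 10 reads asked of each CpG the mean difference was -0.969 points, and with reads pooled over CpGs -2.03 points. CpGs over 50% in all 6 libraries numbered 3 in HoxC and 15 in HoxD, against 114 in HoxA and 92 in HoxB. CpGs under 20% in all 6 numbered 209 (44.0%) in HoxC and 287 (47.8%) in HoxD. In HoxA they numbered 282 (46.7%) and in HoxB 284 (43.2%), so the share of such CpGs was alike in the 4 clusters.

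**Figure D1:**
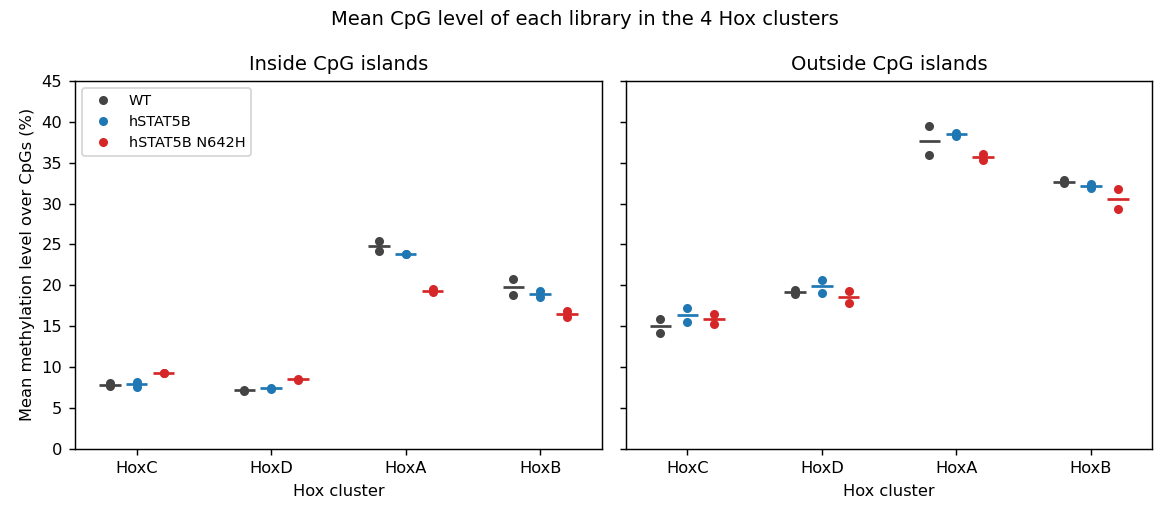
Mean methylation level (%) over the CpGs of the 4 Hox clusters, inside CpG islands (left) and outside them (right). Each point is a library and each bar the mean of the 2 libraries of a genotype, and HoxC and HoxD lie below HoxA and HoxB in both panels.

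Levels were low in every class of CpG density, and lowest in CpG-dense DNA. In HoxC, the 88 CpGs with 1 to 5 CpGs within 100 bases (themselves included) had library means of 23.3 to 26.7%, and the 40 CpGs with over 20 had means of 5.90 to 10.5%. In HoxD, the 56 CpGs in the sparsest class had means of 27.7 to 32.1%, and the 209 in the densest class 5.43 to 7.62%. Denser classes had lower levels in both clusters, although in HoxC the library ranges of the densest 2 classes overlapped, and none of the classes reached the 81.4 to 82.5% that the genome had outside CpG islands. Outside islands, HoxC ran from 14.2 to 17.2% and HoxD from 17.8 to 20.7%. Coding exons were at 7.99 to 9.30% in HoxC (147 CpGs) and 10.2 to 11.6% in HoxD (221 CpGs), and introns at 14.5 to 17.6% in HoxC (157 CpGs) and 12.7 to 14.2% in HoxD (220 CpGs).

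The profile along HoxC was low. Of 125 1-kb bins, 68 held a measured CpG and 49 held at least 3, and the median level of these 49 was 11.1%. The median of a bin over the 6 libraries ran from 1.56 to 41.7%. In 30 of the 49 bins all 6 libraries were under 20%, and no bin was over 50% in all 6. The 3 CpGs that were over 50% in every library lay singly. The CpG at position 102953729, between genes upstream of Hoxc11, ran from 62.5 to 93.3%. It was read as few as 8 times in a library, and the CpG at 103018526, upstream of Hoxc4, as few as 5 times. The Hoxc4 CpG was at 88.6% in WT replicate 1 and at 100% in the other 5 libraries. The third, at 103029898 in a Hoxc4 transcript, had at least 25 reads per library and ran from 60.5 to 92.3%.

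**Figure D2:**
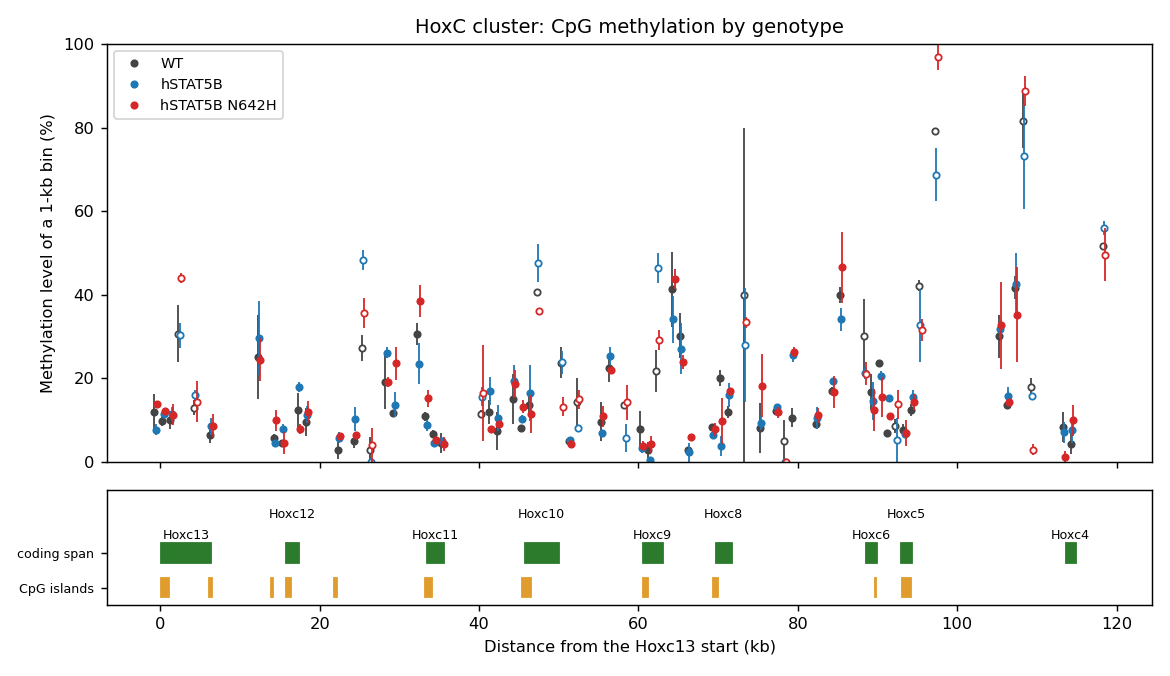
Methylation level (%) of 1-kb bins along HoxC against distance in kb from the Hoxc13 start, with the mean of each genotype as a point and the range of its 2 libraries as a line, and open points for bins of fewer than 3 CpGs. Green boxes mark the coding spans of the 9 Hox genes and orange boxes CpG islands, and most points lie under 20% from Hoxc13 to Hoxc4.

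HoxD differed along its length. From Hoxd13 to Hoxd8, the posterior end of the cluster, no bin was over 50% in all libraries, whereas methylated bins gathered around Hoxd4, with 1 more in Haglr, towards Hoxd1. Of 110 bins, 55 held a measured CpG and 44 at least 3. The median of these was 11.1%, as in HoxC, and 31 were under 20% in all 6 libraries. Of the 4 bins over 50% in all 6 libraries, 3 lay at Hoxd4. The bin chr2:74725001-74726000, in a 5′ exon of a long Hoxd4 transcript just upstream of Mir10b, was at 73.5 and 76.4% in WT, 79.96 and 90.4% in hSTAT5B and 82.3 and 68.7% in hSTAT5B N642H. The bins at chr2:74728001-74729000 and chr2:74729001-74730000, over the last exon of Hoxd4 and its end, ran from 51.2 to 65.2% and from 66.0 to 80%. The island between them and the Mir10b bin, over the first coding exon of Hoxd4 (chr2:74727334-74727642, 15 CpGs), ran from 9.68 to 13.3%. So Hoxd4 was methylated on both sides of an island that was not.

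The fourth bin was the Haglr stretch printed above (chr2:74759001-74760000, 3 CpGs). It was at 96.7 and 95.5% in WT, 96.0 and 93.9% in hSTAT5B and 85.8 and 87.5% in hSTAT5B N642H. Both hSTAT5B N642H libraries were below the other 4, on 43 to 93 reads per library, and the fitted difference from WT did not pass the test (limma, adjusted p = 0.761). Most of the gap came from the CpG at 74759281, at 70.0 and 75.0% in hSTAT5B N642H and 90.0 to 100% in the other 4, with as few as 7 reads. The other Haglr bins with at least 3 CpGs were low, from 0.325% at the lowest (chr2:74749001-74750000) to 26.3% at the highest (chr2:74750001-74751000). A CpG at 74754445, also in Haglr and read at least 125 times in each library, ran from 77.6 to 89.9%. Of the 15 HoxD CpGs over 50% in all libraries, 10 lay within the transcripts of Hoxd3, Hoxd4 or both and 4 in Haglr. The last, at 74700899 between Hoxd9 and Hoxd8, ran from 54.0 to 72.5% with at least 124 reads. None of the 15 lay in a CpG island, they had a median of 5 CpGs within 100 bases against 15 over all HoxD CpGs, and 3 of them lay in repeats masked in the reference.

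**Figure D3:**
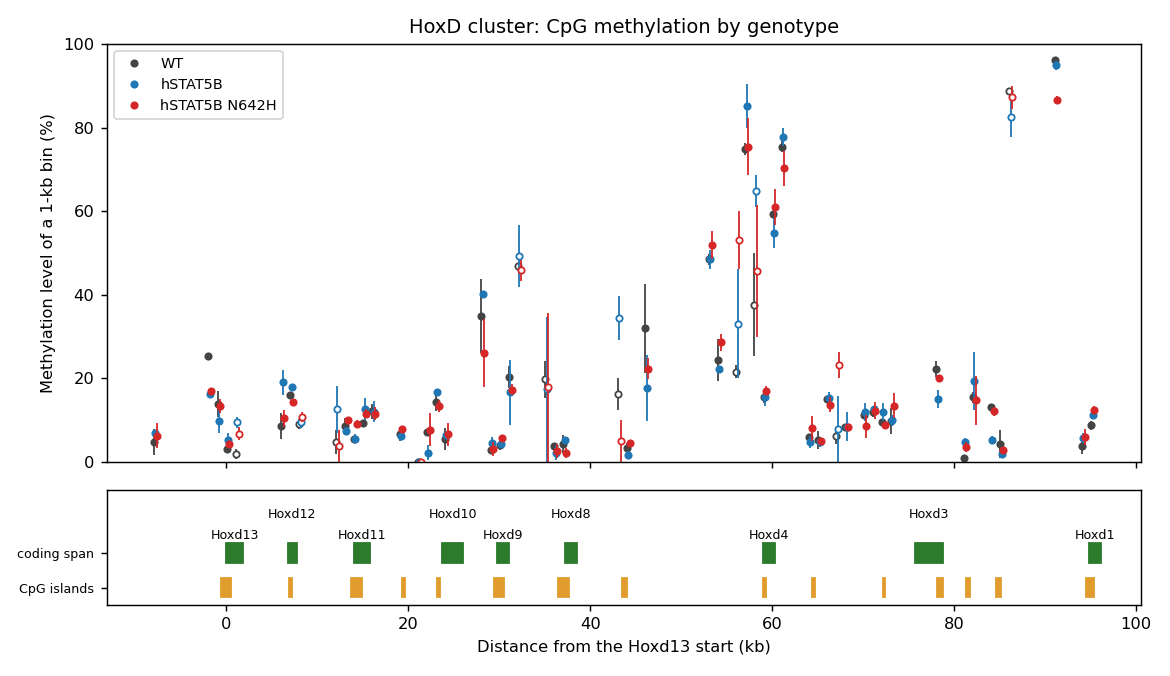
Methylation level (%) of 1-kb bins along HoxD against distance in kb from the Hoxd13 start, drawn as for HoxC. The points over 50% in all 6 libraries lie around Hoxd4 and between Hoxd3 and Hoxd1, and the CpG islands between them stay low.

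By gene, levels over coding exons did not follow position along the cluster. In HoxC, library means ranged up to 24.2%, and Hoxc6, which patterns the thoracic region, was uneven between replicates (14.0 and 22.0% in WT, 6.44 and 16.6% in hSTAT5B, 9.87 and 12.9% in hSTAT5B N642H, 11 CpGs). Hoxc9 had 7.74 and 3.42% in WT, 0.649 and 2.26% in hSTAT5B and 7.22 and 2.44% in hSTAT5B N642H over 14 CpGs. In HoxD, Hoxd13, needed for digits, was at 1.03 to 4.48% (18 CpGs) and Hoxd8 at 1.57 to 6.53% (12 CpGs). The highest were Hoxd4, at 24.4 and 24.4% in WT, 23.1 and 24.7% in hSTAT5B and 24.1 and 27.0% in hSTAT5B N642H (22 CpGs), and Hoxd3, at 24.2 and 20.2% in WT, 12.8 and 17.3% in hSTAT5B and 19.3 and 20.7% in hSTAT5B N642H (24 CpGs). Hoxd12 came next, at 12.9 to 19.3% (24 CpGs). Hoxc10 had the widest gap between genotypes, at 6.67 and 5.48% in WT, 8.57 and 4.03% in hSTAT5B and 12.3 and 24.2% in hSTAT5B N642H, over 7 CpGs, and it was picked out after its values were seen. Its 2 hSTAT5B N642H libraries lay above the other 4 and differed from each other more than replicate 1 did from them.

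**Figure D4:**
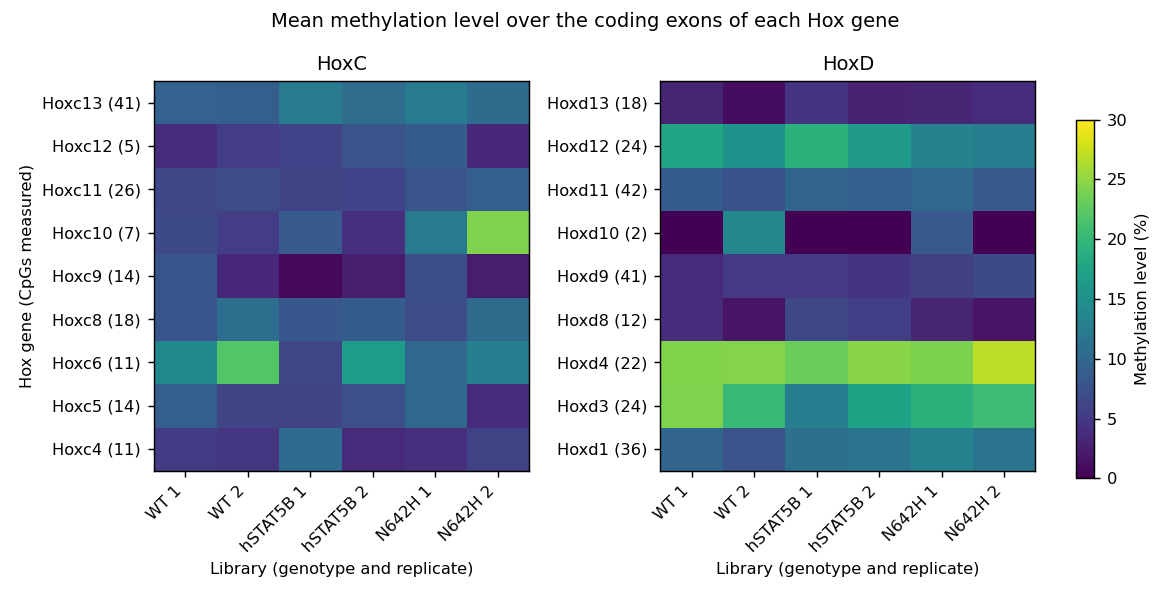
Mean methylation level (%, colour scale from 0 to 30) over the coding exons of each Hox gene of HoxC (left) and HoxD (right) in the 6 libraries, with the number of CpGs in brackets. Genes run in cluster order, and Hoxd4 is the highest gene of HoxD in every library.

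Promoters (1 kb on either side of the most 5′ annotated start) gave a value for 8 of 9 HoxC genes and 8 of 9 HoxD genes, and each was under 20% in all 6 libraries. The median was 10.5% in HoxC and 5.70% in HoxD, beside 4.74% over all promoters of the genome. No promoter passed the test in any comparison (limma, adjusted p under 0.05, 0 of 20604 promoters, 0% called). At an unadjusted p under 0.05 there were 1365, 1306 and 1334 promoters in hSTAT5B N642H minus WT, hSTAT5B minus WT and hSTAT5B N642H minus hSTAT5B. Hox promoters at least 5 percentage points apart between genotypes numbered 0 in the first 2 comparisons, against 10.6% and 9.08% of all promoters, and 1 in the third, against 10.5%. That gene was Hoxc11, at 9.99 and 8.07% in hSTAT5B and 13.1 and 15.5% in hSTAT5B N642H, with WT between at 11.5 and 10.6% (24 CpGs).

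At the other Hox promoters the genotype means lay within 5 points of each other. Hoxc10 had the largest hSTAT5B N642H minus WT difference, 4.71 points, at 8.80 and 7.32% in WT, 10.9 and 10.1% in hSTAT5B and 12.02 and 13.5% in hSTAT5B N642H, with both hSTAT5B N642H libraries above the other 4. Hoxc8 was at 10.002 and 10.6% in WT, 6.17 and 5.77% in hSTAT5B and 5.96 and 10.4% in hSTAT5B N642H, so that WT and hSTAT5B did not overlap and hSTAT5B N642H spanned both. Hoxc13, which acts in hair and nail, had 11.8 and 8.21% in WT, 11.2 and 10.2% in hSTAT5B and 12.5 and 11.9% in hSTAT5B N642H over 54 CpGs. Hoxd12 was the highest of these, at 16.0 and 14.1% in WT, 19.1 and 17.1% in hSTAT5B and 13.9 and 13.8% in hSTAT5B N642H. Hoxd3 and Hoxd4 shared the same 25 CpGs at a common upstream start, and these ran from 3.13 to 5.71%. Hoxd1 and Haglr, which start next to each other on opposite strands, shared the same 51 CpGs, at 8.54 and 6.02% in WT, 9.15 and 10.2% in hSTAT5B and 10.6 and 10.5% in hSTAT5B N642H. The annotated start of Hoxc5 lay at Hoxc10, far from its coding exons, so its promoter value (7.46 to 13.8%) says little about Hoxc5. The window of Hoxc4 held only 2 CpGs, at 62.5 to 100%, and was not tested. Hotair, the long non-coding RNA between Hoxc12 and Hoxc11, had 1 CpG in its window, at 0 to 8%. Hoxc12 (4 CpGs) ran from 1.92 to 9.01%, Hoxc9 (10 CpGs) from 5.57 to 12.8% and Hoxc6 (6 CpGs) from 8.85 to 11.3%. Hoxd13 (23 CpGs) ran from 2.56 to 6.30%, Hoxd10 (32 CpGs) from 9.54 to 14.4%, Hoxd9 (52 CpGs) from 5.70 to 7.72% and Hoxd8 (23 CpGs) from 0.673 to 5.67%. The window of Hoxd11 held 1 CpG, at 0 to 18.2%, and was not tested. The short non-coding RNA genes Gm27337, Gm28011 and Gm27535 lie at or next to Hotair. All were at least 5 points higher in hSTAT5B than in hSTAT5B N642H (limma, adjusted p = 0.947, 0.794 and 0.771), and 10.5% of all promoters were that far apart. Gm27337 was at 14.7 and 18.7% against 11.9 and 10.8%, with WT at 7.76 and 9.65%. The 5 CpGs of Gm28011 all lay in the Gm27535 window too, so these are not separate observations. WT overlapped both other genotypes at Gm28011 and at Gm27535. Among microRNAs, Mir196a-2 was at 5.28 to 8.08% (8 CpGs) and Mir615 at 7.15 to 12.5% (25 CpGs). Mir10b, which lies between Hoxd4 exons, was at 58.1 and 55.4% in WT, 68.3 and 71.8% in hSTAT5B and 69.4 and 50.3% in hSTAT5B N642H over 7 CpGs. The hSTAT5B N642H libraries of Mir10b lay on either side of both WT libraries, and replicate 1 fell between the hSTAT5B libraries. At Mir10b hSTAT5B lay above WT without overlap, by 13.2 points (limma, adjusted p = 0.964). The promoters of HoxA (11 of 12 genes) included Hoxa5, at 92.5 and 94.7% in WT and 87.3 and 85.1% in hSTAT5B N642H, and Hoxa2, at 21.2 and 27.5% in WT and 13.9 and 20.4% in hSTAT5B N642H. Those of HoxB (9 of 10) included Hoxb2, at 74.3 and 72.5% in WT and 71.1 and 65.3% in hSTAT5B N642H. These 3 were the promoters of HoxA and HoxB at least 5 points lower in hSTAT5B N642H than in WT, and Evx1, at the end of HoxA, was at least 5 points higher in hSTAT5B (17.4 and 19.4%) than in WT (14.9 and 11.8%), with hSTAT5B N642H at 17.1 and 19.4%. No tested promoter of a HoxC or HoxD homeobox gene reached the level of Hoxa5 or Hoxb2, and Mir10b overlapped that of Hoxb2.

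Genes whose products act with Hox proteins or on Hox clusters were listed too. The promoters of 9 homeodomain partner genes had a median of 3.09% and those of 15 of 17 Polycomb and trithorax genes 1.83%. No promoter of either list passed the test in any comparison, and none lay 5 percentage points apart between genotypes.

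Bins were then compared between genotypes, to ask whether either transgene went with a change in Hox methylation. No 1-kb bin passed the test in any of the 3 comparisons (limma, adjusted p under 0.05, 0 of 135303 bins in the genome, 0% called, smallest adjusted p 0.649, 0.760 and 0.655). Among the 93 Hox bins, an unadjusted p under 0.05 was reached by 2 in hSTAT5B N642H minus WT, 5 in hSTAT5B minus WT and 3 in hSTAT5B N642H minus hSTAT5B. Across the genome 7.14%, 6.26% and 7.16% of bins reached it. A gap of at least 5 percentage points from WT was seen in hSTAT5B N642H in 7 bins upwards (7.53% of 93, against 7.67% of all bins) and in 10 downwards (10.8% against 11.8%). For hSTAT5B the counts were 8 upwards (8.60% against 8.86%) and 8 downwards (8.60% against 7.8%). Between hSTAT5B N642H and hSTAT5B they were 13 upwards (14.0% against 7.1%) and 13 downwards (14.0% against 12.3%). At these settings the shares of the Hox bins lay near those of the genome except for the bins higher in hSTAT5B N642H than in hSTAT5B. With 10 reads asked of each CpG the share for hSTAT5B minus WT departed too, at 22.1% of 77 bins against 12.3% of all bins.

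Replicates differed by as much. In HoxC, the 2 WT libraries were at least 5 points apart in 20 of 49 bins, the 2 hSTAT5B libraries in 17 and the 2 hSTAT5B N642H libraries in 20, and in HoxD in 10, 10 and 13 of 44 bins. All 7 bins higher in hSTAT5B N642H than in WT were in HoxC. The 2 WT comparisons share the WT libraries. The total of bins past 5 points rose from 17 to 28 for hSTAT5B N642H minus WT without hSTAT5B N642H replicate 1 (30.1%, against 24.5% of all bins), and from 16 to 26 for hSTAT5B minus WT without WT replicate 2 (28.0% against 23.6%). Without WT replicate 1 they were 25 (26.9% against 23.7%) and 23 (24.7% against 20.3%).

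**Figure D5:**
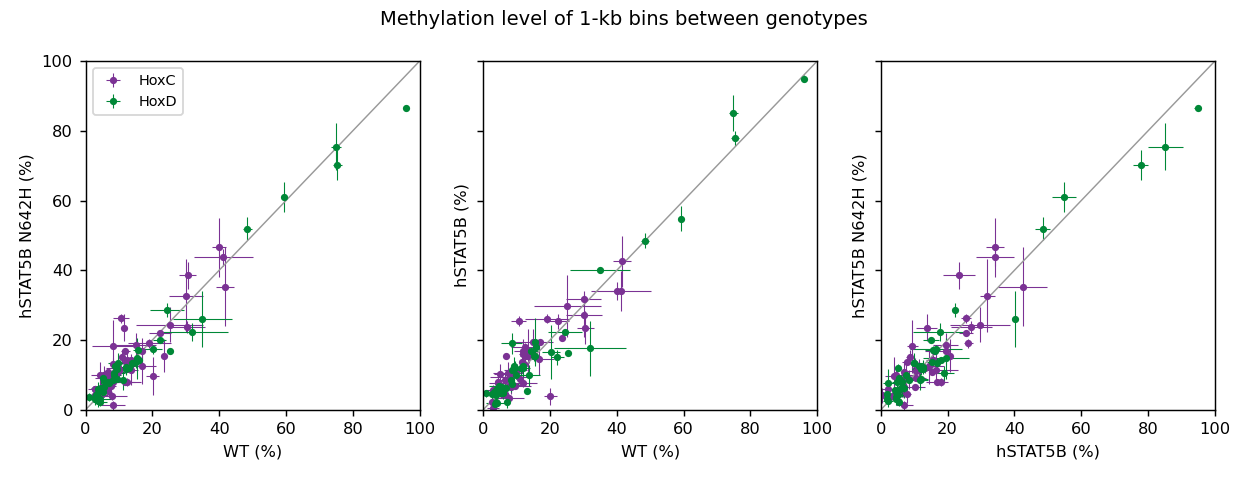
Methylation level (%) of the 93 bins of HoxC (purple) and HoxD (green) with at least 3 CpGs, for each pair of genotypes. Points are means of 2 libraries, bars span their range, and the line marks equal levels, and most points sit on or near it.

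The bin in which hSTAT5B N642H differed most from WT, with no overlap, was the Hoxc6 exon stretch printed above (chr15:103000001-103001000, 6 CpGs). It was at 8.33 and 12.9% in WT, 26.9 and 24.0% in hSTAT5B and 27.6 and 25.0% in hSTAT5B N642H. Each library rested on 70 to 171 reads there. Both WT libraries lay below the 4 transgenic ones, whose genotypes overlapped, by 15.7 points for hSTAT5B N642H and 14.9 for hSTAT5B (limma, adjusted p = 0.649 and 0.760). The other HoxC stretch, upstream of Hoxc11, lay in the bin chr15:102950001-102951000 (5 CpGs). It was at 11.3 and 11.9% in WT, 16.8 and 10.6% in hSTAT5B and 27.5 and 19.6% in hSTAT5B N642H (12.0 points over WT, limma, adjusted p = 0.749). Its CpG at 102950821 was at 78.9 and 35.3% in hSTAT5B N642H and between 18.8 and 30.8% in the other 4 libraries, on 13 to 19 reads per library. The CpG at 102950861 was at 0% in all 6. Another HoxC bin, over the coding exon of Hoxc8 (chr15:102991001-102992000, 4 CpGs), was at 18.1 and 22.1% in WT, 6.25 and 1.39% in hSTAT5B and 4.17 and 15.2% in hSTAT5B N642H. WT was above the other 4 libraries there, on 24 to 92 reads per library, and the hSTAT5B N642H replicates differed by more than 10 points. Neither difference from WT passed the test (limma, adjusted p = 0.821 for hSTAT5B N642H and 0.760 for hSTAT5B).

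In HoxD, the stretch upstream of Hoxd13 (bin chr2:74666001-74667000, 5 CpGs, 167 to 371 reads per library) had replicates close together and WT above the rest. It was at 25.1 and 25.6% in WT, 16.0 and 16.6% in hSTAT5B and 16.8 and 17.03% in hSTAT5B N642H. The difference from WT was -9.03 points in hSTAT5B and -8.45 in hSTAT5B N642H (limma, adjusted p = 0.958 and 0.902). Single CpGs were less even between the WT libraries, on few reads. The CpG at 74666757 was at 20 and 55.6% in WT, on 10 and 9 reads. The CpG at 74666857 was at 60.0 and 25.0%, on 15 and 36 reads. The bin between Hoxd13 and Hoxd12 (chr2:74674001-74675000, 4 CpGs) was at 11.8 and 5.37% in WT, 22.1 and 16.0% in hSTAT5B and 12.5 and 8.40% in hSTAT5B N642H. hSTAT5B was above the other genotypes there. At the start of Hoxd1 (chr2:74763001-74764000, 36 CpGs) levels were 9.74 and 7.70% in WT, 11.05 and 11.6% in hSTAT5B and 13.3 and 11.6% in hSTAT5B N642H.

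In the next 3 HoxC bins the hSTAT5B N642H and hSTAT5B libraries did not overlap. The bin just upstream of Hoxc11 (chr15:102953001-102954000, 4 CpGs) was at 28.3 and 18.8% in hSTAT5B and 34.6 and 42.4% in hSTAT5B N642H, with WT at 28.0 and 33.2%. The bin in a Hoxc6 intron (chr15:103006001-103007000, 3 CpGs) was at 31.4 and 36.7% in hSTAT5B and 38.1 and 55.1% in hSTAT5B N642H, with WT at 41.9 and 37.9%, above hSTAT5B and overlapping hSTAT5B N642H. The last exon of Hoxc12 (chr15:102938001-102939000, 7 CpGs) was lower in hSTAT5B N642H, at 9.05 and 6.73%, than in hSTAT5B, at 19.1 and 16.7%. The WT libraries of the Hoxc12 bin, at 16.5 and 8.47%, reached into both. With 10 reads asked of each CpG the Hoxc12 difference turned to 5.97 points upwards. Another bin, downstream of Hoxc6 in the long Hoxc5 transcript (chr15:103012001-103013000, 12 CpGs), was at 6.77 and 6.88% in WT, 15.1 and 15.6% in hSTAT5B and 11.2 and 10.6% in hSTAT5B N642H. Its hSTAT5B minus WT difference of 8.52 points became -1.24 with 10 reads asked of each CpG. The HoxD bin at the Gm28793 transcript upstream of Hoxd9 (chr2:74696001-74697000, 4 CpGs) was at 43.8 and 26.1% in WT, 39.5 and 40.8% in hSTAT5B and 18.0 and 34.1% in hSTAT5B N642H, with wide replicate gaps.

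Inside CpG islands, the hSTAT5B N642H libraries were slightly above the others in both clusters. In HoxC the island CpGs had means of 8.04 and 7.64% in WT, 7.56 and 8.19% in hSTAT5B and 9.29 and 9.22% in hSTAT5B N642H. In HoxD they had 7.17 and 7.10% in WT, 7.33 and 7.44% in hSTAT5B and 8.58 and 8.42% in hSTAT5B N642H. WT and hSTAT5B overlapped in HoxC, and both hSTAT5B N642H libraries were above the other 4 in both clusters. Over all island CpGs of the genome both were above the other 4 too, by a mean of 0.167 points. Levels there were 6.61 and 6.80% in WT, 6.86 and 6.85% in hSTAT5B and 6.92 and 6.98% in hSTAT5B N642H. In the 2 clusters the excess over the other 4 was 1.40 points in HoxC and 1.24 in HoxD (exact two-sided permutation test, p = 0.0667 in each, the smallest that 2 libraries against 4 allow). Against WT alone it was 1.41 and 1.37 points (1.61 and 1.40 without WT replicate 1), and 2 libraries against 2 cannot go below an exact permutation p of 0.333. Setting hSTAT5B N642H against the other 4 libraries inside islands was not planned beforehand, so its p is a description and decides nothing. Outside islands the genotypes overlapped in both clusters.

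Averaged over island CpGs, the sign was opposite in the other Hox clusters, where the hSTAT5B N642H libraries were the lowest. Inside islands HoxA ran from 23.9 to 25.4% in the WT and hSTAT5B libraries and was at 19.1 and 19.5% in hSTAT5B N642H. HoxB ran from 18.6 to 20.8% and was at 16.8 and 16.1%. The median over islands of hSTAT5B N642H minus WT was 0.191 points in HoxA and 0.327 in HoxB, beside 2.10 in HoxC and 1.41 in HoxD. Islands higher in hSTAT5B N642H than in WT numbered 6 of 11 in HoxC (54.5%) and 10 of 15 in HoxD (66.7%). In HoxA and in HoxB, 10 of 18 islands were higher (55.6%, against 55.4% of all islands). So the lower means did not come from most islands of HoxA and HoxB. Over all CpG islands of the genome, the hSTAT5B N642H libraries were 0.241 points above WT. Within a library, the mean of HoxC and HoxD minus the mean of HoxA and HoxB inside islands was -13.9 and -15.7 points in WT, -14.2 and -13.4 in hSTAT5B and -9.04 and -9.01 in hSTAT5B N642H. The gap was narrower by 5.28 points in hSTAT5B N642H than in the other 4 libraries. By cluster, hSTAT5B N642H minus the other 4 was -5.00 points in HoxA, -2.93 in HoxB, 1.40 in HoxC and 1.24 in HoxD. The contrast between these clusters was chosen after the levels were seen, so it is a description and was not tested.

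The small excess in HoxC and HoxD depended on how many reads were asked of a CpG. With 10 reads it was 0.873 points in HoxC, where hSTAT5B N642H replicate 2 (7.38%) fell among the other libraries (exact permutation p = 0.333), and 0.951 in HoxD, where both libraries stayed above the rest. With 20 reads only 20 HoxC and 29 HoxD island CpGs were left, and the excess was 2.51 and -0.0314 points. The mean T cell marker level given above, carried mostly by Cd8b1, Cd8a and Thy1, was lowest in hSTAT5B N642H. Read depth was highest in hSTAT5B N642H replicate 1, and the part of both in the excess was not tested.

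By island, both hSTAT5B N642H libraries were above the other 4 in 3 of 11 HoxC islands and 3 of 15 HoxD islands with at least 3 CpGs, against 9.04% of all islands of the genome. They were below the other 4 in none of the 26, against 5.48% of all islands. The 6 islands lay upstream of Hoxc12 and at Hoxc11, Hoxc10, Hoxd11, Hoxd9 and Hoxd1. The Hoxd11 island printed above (chr2:74681965-74683246, 68 CpGs) was at 6.48 and 6.23% in WT, 8.03 and 7.84% in hSTAT5B and 9.65 and 10.1% in hSTAT5B N642H. In the printed stretch of 28 CpGs the values were 3.92 and 4.602%, 4.49 and 6.06%, and 8.06 and 9.98%. Within that stretch the CpG at 74682047, picked out after the levels were seen, was at 40 and 54.5% in hSTAT5B N642H. It was at 0 to 6.25% in the other 4 libraries. It was read only 5 and 11 times in hSTAT5B N642H and 9 to 16 times in the other 4. The Hoxc10 island (chr15:102966502-102967662, 16 CpGs) was at 6.66 and 4.78% in WT, 8.60 and 7.24% in hSTAT5B and 10.1 and 13.1% in hSTAT5B N642H. The Hoxd1 island (chr2:74762808-74763627, 49 CpGs) was at 8.57 and 6.27% in WT, 9.52 and 10.1% in hSTAT5B and 10.8 and 10.35% in hSTAT5B N642H. With 10 reads asked of each CpG the count dropped to 2 of 23 islands (8.70%, against 9.12% of all islands), and 1 was below. Without WT replicate 1 it was 8 of 26, against 12.8% of all islands, since 3 libraries are easier to exceed than 4.

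The islands that did not move in this way included the one at Hoxd8, which held the most reference CpGs (180). It (chr2:74704728-74706004, 35 CpGs measured) was at 5.05 and 3.06% in WT, 2.98 and 4.54% in hSTAT5B and 3.77 and 0.980% in hSTAT5B N642H, and the Hoxd13 island (22 CpGs) ran from 2.68 to 6.59%. The Hoxd3 island over its last exons (chr2:74746372-74747099, 23 CpGs) was at 23.7 and 20.9% in WT, 12.8 and 18.0% in hSTAT5B and 19.1 and 21.2% in hSTAT5B N642H. It was the only one of the 26 islands to be over 20% in both WT libraries.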

How the data were processed

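CD8+ T cell RRBS libraries of 6 mice (WT, hSTAT5B, hSTAT5B N642H, 2 each, grouped by GEO labels) were used. Per the study's methods, the authors trimmed reads with Trimmomatic, aligned them to GRCm38/mm10 with BSMAP in RRBS mode and counted CpGs with their own code. Tool versions are not given in the sources used here. The deposited files give each CpG as methylated over total reads in text, with a deposited score of 1000 times their ratio, rounded, which was not used for levels.

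Levels were computed from the read pairs at CpGs read at least 5 times in every library, as unweighted means over at least 3 CpGs per 1-kb bin, promoter or island. CpG islands were called on RefSeq GRCm38 with the UCSC rule (over 200 bp, over 50% GC, observed/expected over 0.6), and genes came from GENCODE. HoxA and HoxB windows ran from their outermost Hox genes with 5 kb on either side. limma 3.58.1 (R 4.3.3) was fitted across all bins or promoters to log2((methylated + 1)/(unmethylated + 1)) with Benjamini-Hochberg adjustment, and single values used exact permutation tests (Python 3.11.15). Scripts were tested on simulated data. Named bins were the 3 with the largest difference per cluster and comparison among bins whose genotypes did not overlap, and all Hox promoters were named. The members, lists and rules were chosen with earlier results of these data known. Each library came from a separate mouse. Same-numbered replicates did not deviate together (correlations -0.00358, -0.00526 and 0.00737 over 135303 bins), so no pairing was used. Intervals for single CpGs are not given, because reads without molecular identifiers are not independent molecules.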

Additional observations from a re-analysis of the deposited data

How the results depend on the processing

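No 1-kb bin or promoter was called by limma with another offset, stricter minimums or a library left out (the lone library of that genotype is then assumed to vary like the others), and no bin with a mean-variance trend, which was not run for promoters, and the replicate block gave 0 calls in all 3 comparisons (9473, 8368 and 9295 bins at an unadjusted p under 0.05). With 2 libraries per genotype, small differences may be missed. HoxC and HoxD stayed below HoxA and HoxB throughout. Leaving out a library gave HoxC minus HoxA -16.5 to -15.1, HoxC minus HoxB -13.8 to -12.7, HoxD minus HoxA -17.3 to -16.1 and HoxD minus HoxB -14.6 to -13.6 percentage points, where 5 libraries cannot reach an exact permutation p of 0.05. HoxC minus HoxD was 0.727 to 0.972 then, 0.479 with 3 reads per CpG, -0.969 with 10 and -2.03 with pooled reads.

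The hSTAT5B N642H minus hSTAT5B difference over all CpGs turned in HoxC with pooled reads (-0.434) and over left-out libraries (-0.437 to 0.883), and in HoxD with pooled reads (-0.548), 20 reads (-0.249) and left-out libraries (-0.187 to 0.494). Inside islands, hSTAT5B N642H minus WT in HoxC was 1.06, 0.841 and 1.78 with 3, 10 and 20 reads, and in HoxD 1.16, 1.08 and 0.628, and 1.66 pooled. hSTAT5B N642H minus hSTAT5B was 0.905 and 3.25 with 10 and 20 reads in HoxC, and 0.818 and -0.691 in HoxD, and 1.23 pooled. hSTAT5B minus WT was -1.47 with 20 reads in HoxC, and 1.32 and 0.126 with 20 and 3 reads and 0.432 pooled in HoxD. Outside islands in HoxD, hSTAT5B minus WT was 1.95 pooled, hSTAT5B N642H minus WT 0.582 with 20 reads and 0.455 pooled, and hSTAT5B N642H minus hSTAT5B -0.115 with 20 reads. These island alternatives were chosen after seeing the data. Both hSTAT5B N642H libraries were above the others in 2 of 23 islands with 10 reads (9.12% of all islands), and in 7 to 9 of 26 with a WT or hSTAT5B library left out, when 12.8 to 13.2% of all islands met the easier rule.

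Bins past 5 points in hSTAT5B N642H minus WT, hSTAT5B minus WT and hSTAT5B N642H minus hSTAT5B numbered 33, 33 and 44 of 123 with 1 CpG per bin (28.6%, 25.5% and 28.6% of all bins did), 8, 8 and 12 of 72 with 5 CpGs (12.3%, 9.94% and 12.1%), and 4, 5 and 3 of 93 at 10 points (5.52%, 4.07% and 5.21%). Bins of 0.5 kb gave 27 and 29 of 117 for the WT comparisons (19.0% and 16.5%), and 2-kb bins 10 and 11 of 69 for the hSTAT5B N642H ones (19.4% and 19.3%). For hSTAT5B N642H minus hSTAT5B, bins of 0.5 kb gave 28.2% of 117 (18.9% of all bins). With 10 reads per CpG the shares of 77 bins were 15.6%, 22.1% and 24.7% (15.2%, 12.3% and 14.9% of all bins). With 3 reads the shares of 97 bins were 14.4%, 20.6% and 26.8% (22.3%, 19.7% and 22.3%). Leaving out a library gave 18 to 28, 22 to 26 and 21 to 33 of 93. With 10 reads per CpG, differences turned at the bins of Hoxc12 (5.97), Hoxc5 (-1.24) and upstream of Mir10b (-0.318), and at the Mir10b promoter (hSTAT5B minus WT -1.17, hSTAT5B N642H minus hSTAT5B 1.38). The causes were not tested.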
